A study of Homo sapiens with 16 samples.

Results

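The regions described here are places in the genome where MED1 was listed in untagged HCT116 cells under both treatments and in none of the lists from MED14-AID cells. Peaks of the 6 deposited lists that shared at least 1 bp were joined into 1584 regions. Of these, 775 held a peak in both wild-type (WT) lists, and 348 of the 775 held no peak in any of the 4 MED14-AID lists. They are called WT-only regions below. They were chosen by the presence and absence of listed peaks, so every value taken from the same peaks is given as a description, without a test. The WT-only share of the regions in both WT lists was 44.9% (Wilson 95% interval 41.4 to 48.4%, which covers the counting of regions only), and they made up 22.0% of all 1584 regions. The lists differ in length, with 1106 peaks (DMSO) and 1254 peaks (Nutlin-3a) in WT cells against 463 and 522 with water and 53 and 66 with auxin. With the WT lists shortened to the lengths of the water lists, 88 regions were WT-only, 23.8% of those in both WT lists.

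HCT116 is a human colorectal carcinoma line with intact p53. WT cells were given DMSO or Nutlin-3a, which frees p53 from its inhibitor MDM2, for 1 h. The CRISPR/Cas9-edited line (OsTir1+/-;Med14-AID+/+) was given water or 500 µM auxin for 3 h, each alone or followed by Nutlin-3a for 1 h. All 4 of its conditions carry the degron tag and the plant F-box protein OsTIR1, also those without auxin, and WT cells carry neither. The labels do not say whether the edited line was 1 clone. Behind each of the 2 WT lists stood 2 MED1 libraries taken jointly, and behind each of the 4 MED14-AID lists 1, and 8 inputs completed the 16 samples. No list belongs to a single WT replicate, so no value below can be set against a spread between replicates. Line, number of libraries and mock treatment all differ between WT and MED14-AID cells and cannot be told apart. The lists hold no read counts, and depth is unknown.

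MED1 is the largest subunit of the middle part of Mediator, the complex through which factors bound at enhancers and promoters contact RNA polymerase II. It carries the motifs by which nuclear receptors bind Mediator, and dense MED1 signal is a usual mark of strong enhancers and of enhancer clusters. MED14 is the scaffold that holds the head, middle and tail of Mediator together. A MED1 peak is therefore read in this field as chromatin occupied by Mediator, and its height grows with the number of cells and the time in which the complex is held there.

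WT-only regions were among the lower MED1 sites of the WT lists. Strength is given by the authors' fold enrichment, the ratio of the signal at the highest point of a peak over the local background of the peak caller. Where a region held several peaks of a list, the highest was used. In the DMSO list the folds of the 348 regions ran from 1.47 to 5.95 with a median of 3.14 and quartiles of 2.74 and 3.66. In the Nutlin-3a list they ran from 1.58 to 7.94 with a median of 3.43 and quartiles of 2.95 and 3.98. The 427 regions of both WT lists that also had a MED14-AID peak had medians of 4.02 with DMSO and 4.55 with Nutlin-3a, and reached 44.0 and 47.5. The ranges overlap along nearly the whole span of the WT-only values, and WT-only regions are missing from the high end.

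**Figure D1:**
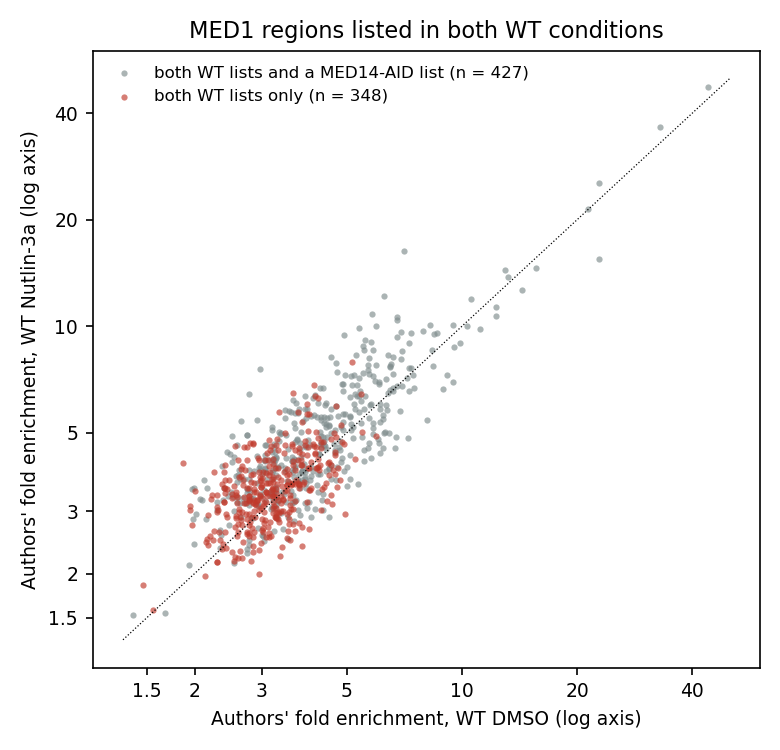
Each point is 1 MED1 region listed in both WT conditions, with the authors' fold in the DMSO list on the horizontal axis and in the Nutlin-3a list on the vertical axis (both log axes; dotted line, equal folds). The 348 WT-only regions (red) end at a fold of 5.95 with DMSO and 7.94 with Nutlin-3a, while the 427 regions with a MED14-AID peak (grey) reach 44.0 and 47.5.

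The −log10 q of the peaks, the caller's measure of confidence, gave the same order. Its median at WT-only regions was 9.43 with DMSO and 11.5 with Nutlin-3a, against 19.1 and 25.3 at regions with a MED14-AID peak. WT-only regions stood above the positions listed in a single WT condition and in no MED14-AID list. The 279 regions of the DMSO list alone had a median fold of 2.77, and the 384 of the Nutlin-3a list alone had 2.96. Of the 1011 regions with a WT and no MED14-AID peak, the WT-only regions were 34.4% (31.6 to 37.4%).

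The level in WT cells went with the number of MED14-AID lists that held the region. Median folds with DMSO were 3.14 for the 348 regions in no MED14-AID list, 3.28 for 128 regions in 1 list and 4.29 for 254 regions in 2 lists. They were 6.12 for 14 regions in 3 lists and 9.13 for 31 regions in all 4. With Nutlin-3a the medians in the same order were 3.43, 3.81, 4.73, 6.84 and 9.82. Regions in a single MED14-AID list thus lay close to the WT-only regions in the WT DMSO list, with medians 3.28 and 3.14. The 2 sets differed in other measures. Median peak widths were 869 against 716 bp with DMSO and 1019.5 against 782 bp with Nutlin-3a. Median distances to the nearest MED14-AID peak outside the region were 17.8 against 644 kb.

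Ranking the 775 regions by the mean of their fold ranks in both WT lists and cutting them into 5 equal classes, from class 1 (weakest) to class 5 (strongest), showed how the WT-only share moved with strength. In class 1, 109 of 155 regions were WT-only (70.3%, 62.7 to 77.0%), and in class 2, 100 of 155 (64.5%, 56.7 to 71.6%). Classes 3 and 4 held 69 (44.5%, 36.9 to 52.4%) and 62 (40%, 32.6 to 47.9%). In class 5, 8 of 155 were WT-only (5.16%, 2.64 to 9.85%). The step between classes 4 and 5 was larger than any other, and the intervals of classes 1 and 2 overlap, as do those of classes 3 and 4. Since presence in the MED14-AID lists is itself a matter of peak height, the trend describes the lists and says nothing of a loss at a given site.

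**Figure D2:**
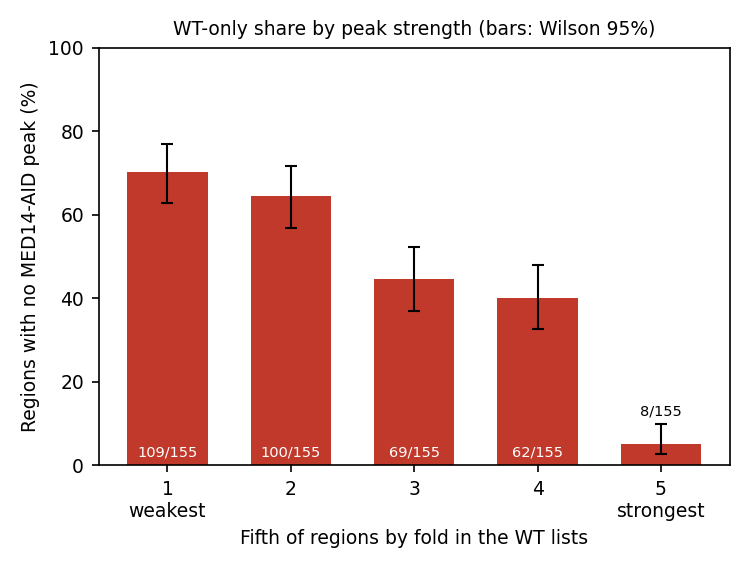
Bars give the share of regions with no MED14-AID peak in each of 5 equal classes of the 775 regions of both WT lists, ordered by fold from the weakest (1) to the strongest (5); the numbers are WT-only regions over all regions, and lines are Wilson 95% intervals. The share is 70.3% in class 1 and 5.16% in class 5.

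A fold of at least 5 in both WT lists was reached by 3 WT-only regions. Over all 775 regions 14.8% reached it (115 regions), so the 3 are 2.61% of those 115 (0.891 to 7.39%). The first lay on chromosome X, 45365930 to 45367171 (hg19, 1-based, as are all positions here). Its fold was 5.17 with DMSO and 7.94 with Nutlin-3a, the highest of all 348 in the latter list, and the nearest MED14-AID peak lay 26.3 kb away. The second, on chromosome 10, 11939878 to 11941219, had 5.45 and 6.44, and no MED14-AID peak within 3.20 Mb. The last, on chromosome 7, 149570658 to 149571458, had 5.47 and 5.02 and stood 18.9 Mb from the nearest MED14-AID peak.

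A further 7 complete the 10 strongest WT-only regions by the geometric mean of both folds. Chromosome 19, 19144066 to 19144845, had the highest DMSO fold of all WT-only regions, 5.95, and 4.91 with Nutlin-3a. Chromosome 1, 8257503 to 8258702, had 4.11 and 6.81. Chromosome 10, 11916769 to 11918622, had 4.68 and 5.96 and belongs to the same cluster as the second region above. Chromosome 1 held a further pair. The one from 148241299 to 148242014 had folds of 4.20 with DMSO and 6.28 with Nutlin-3a, and the one from 149223242 to 149224651 had 4.82 and 5.25. Chromosome 15, 65588098 to 65589073, had 4.13 and 6.34, and chromosome 6, 74289167 to 74290926, had 3.94 and 6.02. Of the 10, 8 were higher with Nutlin-3a and those on chromosomes 19 and 7 were higher with DMSO. Within 12500 bp, the usual distance for joining enhancer peaks into clusters, none of the 10 had a MED14-AID peak, and 7 had none within 1 Mb. Of all 348 WT-only regions, 22.7% had one within 12500 bp and 43.1% had none within 1 Mb.

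At the low end, the folds of the 5 weakest WT-only regions lay between 1.47 and 2.30 in both lists. A pair of them was on chromosome 21, 11120267 to 11121201 (1.56 with DMSO and 1.58 with Nutlin-3a) and 11143587 to 11144316 (1.47 and 1.86). These were also the 2 of 348 with a fold under 2 in both lists. Their nearest MED14-AID peaks, 3.96 kb and 15.4 kb away, were in the auxin list without Nutlin-3a. The others were chromosome 8, 126653567 to 126654592, with 2.13 and 1.96, chromosome 17, 62675895 to 62676648, with 2.29 and 2.16, and chromosome 2, 110863463 to 110864128, with 2.30 and 2.16.

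WT-only regions were narrow. The highest peak of a region had a median width of 716 bp in the DMSO list (quartiles 593 and 942 bp) and 782 bp in the Nutlin-3a list (603 and 1071 bp). Regions with a MED14-AID peak had medians of 1106 bp and 1267 bp, and regions of the DMSO list alone and the Nutlin-3a list alone had 582 bp and 627 bp. At WT-only regions 337 of 348 (96.8%, 94.4 to 98.2%) consisted of 1 peak per WT list, against 376 of 427 (88.1%, 84.6 to 90.8%) of those with a MED14-AID peak. Since strength and width may go together, widths were also compared within the 5 classes of strength. Folds were not matched within a class. In every class the WT-only regions had the lower median width in both lists. With DMSO it was 625 against 743 bp in class 1, 718.5 against 853 bp in class 2, 732 against 995 bp in class 3, 800 against 1216 bp in class 4 and 887 against 1663 bp in class 5.

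The widest WT-only regions were outliers to this. Chromosome 22, 30604457 to 30607902, spanned 3446 bp, with folds of 4.55 and 3.34, and its width came from the Nutlin-3a list (1438 bp with DMSO). Chromosome 12, 13722254 to 13725108, spanned 2855 bp, where 1 peak of 2702 bp in the Nutlin-3a list met 2 peaks in the DMSO list, the higher of them 754 bp wide. Chromosome 6, 26156233 to 26159050, spanned 2818 bp, where 1 peak of 2734 bp in the DMSO list met 2 peaks in the Nutlin-3a list, the higher of them 866 bp wide.

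Most WT-only regions lay far from any MED1 peak of MED14-AID cells, and a smaller number lay close to one. The distance to the nearest MED14-AID peak, from edge to edge, had a median of 644 kb, with quartiles of 16.4 kb and 3.81 Mb and a range from 149 bp to 38.6 Mb. The median depended on the processing. It was 341 kb when a 50% reciprocal overlap was asked for, 1241 kb with WT peaks of −log10 q of at least 10, 3198 kb with a fold of at least 5 (3 regions) and 1390 kb with lists of equal length. Up to 1 kb there were 14 regions (4.02%), from there to 12500 bp 65 (18.7%), to 100 kb 47 (13.5%), to 1 Mb 72 (20.7%), and beyond 1 Mb 150 (43.1%, 38.0 to 48.4%). Regions with a MED14-AID peak were measured in the same way to the next MED14-AID peak outside themselves. Their median was 9.39 kb, 228 of 427 (53.4%, 48.7 to 58.1%) had one within 12500 bp, and 71 (16.6%, 13.4 to 20.5%) had none within 1 Mb. The WT-only share within 12500 bp was 79 of 348 (22.7%, 18.6 to 27.4%), close to the 20.8% of all 1011 regions with a WT and no MED14-AID peak. It was 14.7% (11.0 to 19.3%) for the DMSO list alone and 23.4% (19.5 to 27.9%) for the Nutlin-3a list alone. Median distances in these single-list sets were longer than at WT-only regions, 1632 kb for DMSO and 864 kb for Nutlin-3a. Beyond 1 Mb lay 57.3% and 47.7% of them.

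**Figure D3:**
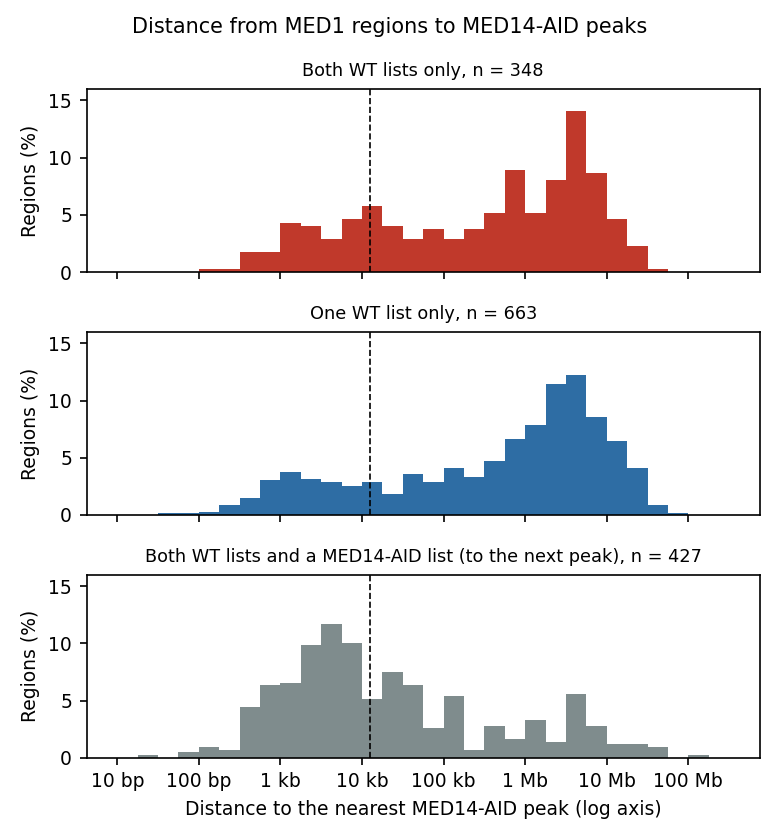
Histograms of the distance to the nearest MED14-AID peak (log axis) as a share of each set; the dashed line marks 12500 bp. WT-only regions (top) and regions of a single WT list (middle) peak beyond 1 Mb, with a lower shoulder at short range, while most regions with a MED14-AID peak (bottom) have a further one within 12500 bp.

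The difference in distance was present within each class of strength, though folds were not matched within a class. In class 5 the DMSO folds ran from 4.11 to 44.0, and those of WT-only regions reached 5.95. In class 1, 34.9% of WT-only regions and 65.2% of regions with a MED14-AID peak had a MED14-AID peak within 12500 bp, and in class 2, 18% and 40%. The shares were 17.4% and 60.5% in class 3 and 17.7% and 54.8% in class 4. In class 5, 0 of 8 and 73 of 147 did. Among WT-only regions, those within 12500 bp of a MED14-AID peak were the lower ones. Their median fold was 2.87 with DMSO and 3.23 with Nutlin-3a, against 3.27 and 3.49 for those beyond 1 Mb. They were wider as whole regions, 1152 bp against 852 bp. Regions with a MED14-AID peak showed the same order, so it is not particular to WT-only regions. Their median folds were 3.90 with DMSO and 4.40 with Nutlin-3a within 12500 bp, against 4.37 and 4.84 beyond 1 Mb. Their median widths were 1747 bp against 986 bp. Across the 348 regions Spearman's rho between distance and the geometric mean fold was 0.21, given as a description since neighbouring regions share a locus.

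By list, 69 of 348 WT-only regions lay within 12500 bp of a MED14-AID peak listed after water and 78 of one in the water-plus-Nutlin-3a list. Within the same distance of an auxin peak there were 6 without and 5 with Nutlin-3a. The nearest of all MED14-AID peaks was in the water list for 145 regions, in the water-plus-Nutlin-3a list for 169, and in an auxin list for 34 in all (10 without and 24 with Nutlin-3a). The auxin lists are also the shortest. The regions shared with MED14-AID cells rested on the water lists as well, since 420 of 427 had a peak in at least 1 of them and 62 had one in an auxin list.

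The WT-only regions nearest to the edge of the rule sat directly beside a MED14-AID peak. The closest was on chromosome 3, 111621269 to 111622719, with folds of 3.18 and 4.57. It ended 149 bp before a peak of the water list (111622869 to 111623458). The next were chromosome 12, 76114377 to 76115995, at 204 bp, chromosome 14, 69246474 to 69247642, at 318 bp, chromosome 15, 60689452 to 60690586, at 336 bp, and chromosome 8, 126556702 to 126557605, at 344 bp. The folds of these last 4 ran from 2.30 to 3.85 in both WT lists. Just outside the rule, the smallest overlap between a WT and a MED14-AID peak was 237 bp, on chromosome 16, 69563550 to 69565091, where the folds were 3.82 with DMSO, 3.86 with Nutlin-3a and 3.49 in the water-plus-Nutlin-3a list. It was followed by chromosome 15, 20545761 to 20547231, with 424 bp, chromosome 17, 73257347 to 73258211, with 437 bp, chromosome 6, 152811671 to 152812881, with 441 bp, and chromosome 5, 81573696 to 81574439, with 457 bp. Each of these 5 was in 1 MED14-AID list only, and their folds in the WT lists ran from 1.93 to 4.26, within the range of the WT-only regions.

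Where a WT-only region stood beside a region with a MED14-AID peak, it was mostly the lower and narrower of the pair. Of the 79 within 12500 bp, 76 had such a neighbour listed in both WT conditions within that distance. The nearest one was taken, and a neighbour could serve several WT-only regions, so the pairs are not independent. In the DMSO list 68 of the 76 had the lower fold, with medians of 2.86 against 4.67, and in the Nutlin-3a list 69 did, with 3.25 against 5.33. The highest DMSO peak was narrower than the neighbour's at 66 of 76, with medians of 772.5 against 1658.5 bp. The highest Nutlin-3a peak was narrower at 64, with 927.5 against 1723.5 bp. The full sets differ in the same direction wherever they lie. Their median folds were 3.14 against 4.02 with DMSO and 3.43 against 4.55 with Nutlin-3a. Their median widths were 716 against 1106 bp and 782 against 1267 bp. How often a WT-only region is the lower or narrower of a pair that is not adjacent was not tested.

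Joining regions up to 12500 bp apart placed the 348 WT-only regions in 295 clusters, which are groups by position only. Whether they are enhancers or promoters was not tested. In 190 of these the WT-only region was alone (54.6% of WT-only regions, against 31.1% of regions with a MED14-AID peak that were alone). A further 73 lay in 49 clusters of several WT regions with no MED14-AID peak at all, and 85 lay in 56 clusters that held a MED14-AID peak. Clusters with at least 2 WT-only regions numbered 34.

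The cluster with most WT-only regions on chromosome 10, 114135003 to 114164952, held 7 regions over 30.0 kb. Its highest member, from 114138830 to 114141211, was listed in 4 conditions, with folds of 6.61 with DMSO, 6.69 with Nutlin-3a, 4.79 with water and 3.89 in the water-plus-Nutlin-3a list. Around it stood 5 WT-only regions. The one from 114141603, next to the highest region, had 3.97 and 5.65, the one from 114148618 had 3.29 and 4.81, and the one from 114163885 had 4.62 and 4.99. The remaining ones, from 114135003 and 114153574, were higher with DMSO, at 3.34 against 2.24 and 2.95 against 1.99. MED14-AID cells thus had MED1 listed at the tallest site of the cluster and at none of its flanks.

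A longer cluster on chromosome 4, 30754482 to 30842360, also held 5 WT-only regions, among 19 regions over 87.9 kb. Here 10 regions had a MED14-AID peak. The tallest of them in the MED14-AID lists, from 30756741 to 30761088, was in all 6 lists, with folds of 6.98 with DMSO, 8.49 with Nutlin-3a, 10.6 with water and 11.7 in the water-plus-Nutlin-3a list, and 4.61 and 5.05 with auxin. The WT-only regions lay between and beside the tall ones, from 30754482 (3.30 with DMSO and 4.46 with Nutlin-3a), 30764358 (2.65 and 3.96), 30768719 (2.81 and 2.17), 30775054 (2.58 and 3.29) and 30836537 (2.61 and 3.05). Some regions of like height in WT cells were listed in MED14-AID cells, such as that from 30841150, with 2.48 and 4.36 in WT cells and 4.56 with water.

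Cluster 3, on chromosome 10, 11916769 to 11941219, was of another kind. All 4 of its regions over 24.5 kb were WT-only, and the nearest MED14-AID peak on the chromosome lay 3.20 Mb from it. The folds were 4.68 with DMSO and 5.96 with Nutlin-3a from 11916769, 4.48 and 4.13 from 11922942, 2.74 and 4.19 from 11928230, and 5.45 and 6.44 from 11939878. Other clusters of 4 WT-only regions with no MED14-AID peak were on chromosome 12, 13712395 to 13734666, and on chromosome 3, 114361427 to 114370366, where 2 further regions were in a single WT list. On chromosome 12 from 13023140 to 13045087, 4 WT-only regions shared a cluster with 1 region that had a MED14-AID peak.

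**Figure D4:**
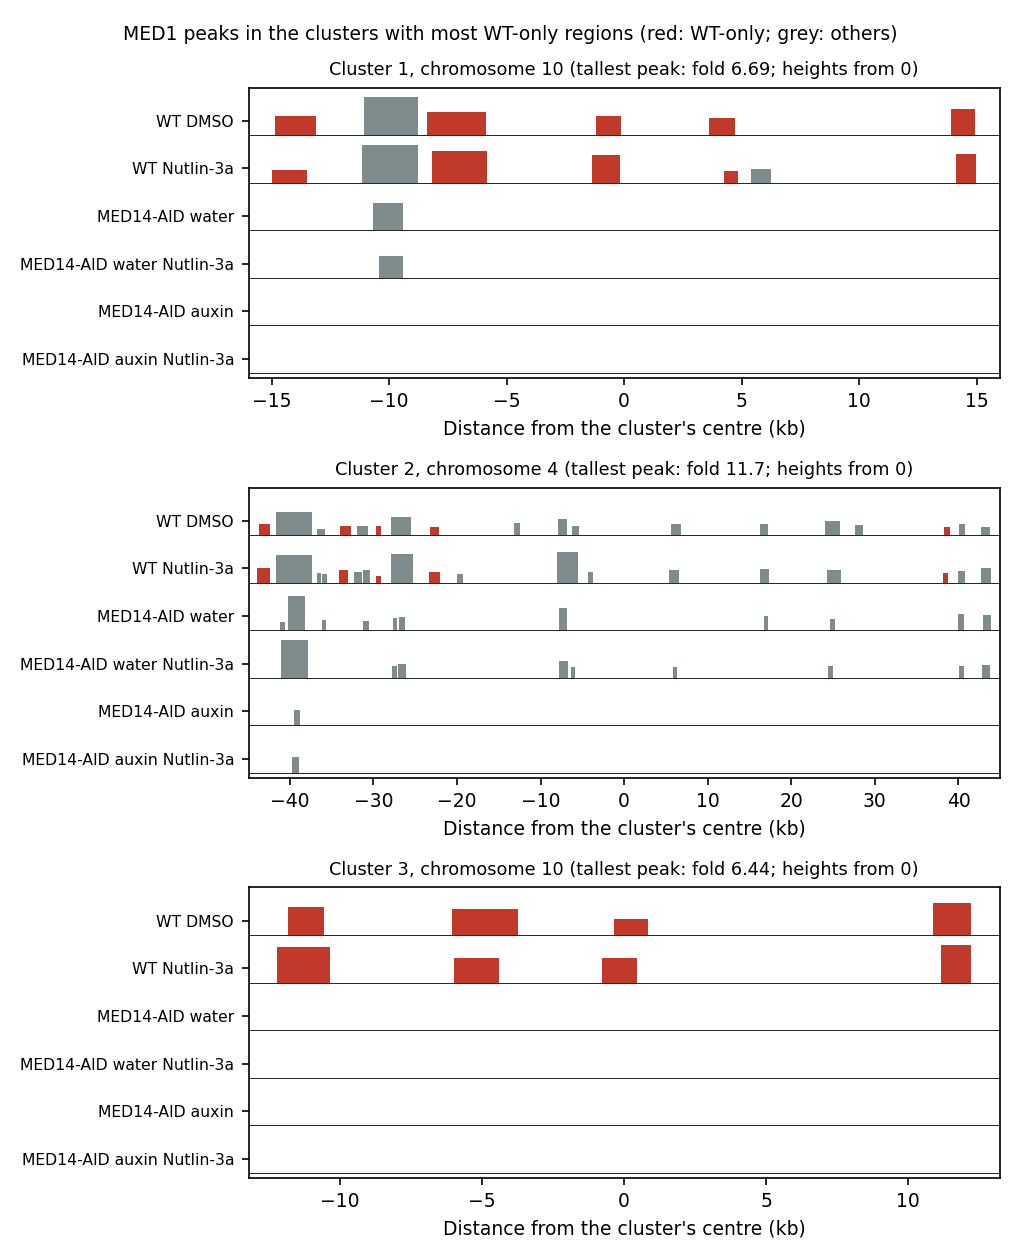
Peaks of the 6 lists in the 3 clusters with most WT-only regions, by distance from the cluster's centre in kb; each row is 1 list, and the height of a block is the authors' fold from 0, to be compared along a row. Cluster 1 (chromosome 10 from 114135003) and cluster 2 (chromosome 4) have MED14-AID peaks beside 5 WT-only regions each (red), and all 4 regions of cluster 3 (chromosome 10 from 11916769) are WT-only.

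The folds with Nutlin-3a and with DMSO were alike at most WT-only regions. The fold was higher in the Nutlin-3a list at 221 of 348 (63.5%), where 66.8% of all 775 regions were. The median log2 ratio of the Nutlin-3a over the DMSO fold was 0.12, with quartiles of −0.10 and 0.33, against a median of 0.18 for regions with a MED14-AID peak. At 26 WT-only regions (7.47%) the fold was at least 1.5 times higher with Nutlin-3a, beside 10.3% of all 775, and at 2 (0.575%) it was at least 1.5 times higher with DMSO, beside 0.387%. Each fold is 1 value per condition over 2 pooled libraries, so a ratio has no error here. A region had to be listed in both conditions, which trims large differences. Folds of the 2 lists correlated across regions, with Spearman's rho of 0.51 over 348 WT-only regions and 0.77 over 427 regions with a MED14-AID peak, whose folds span a wider range.

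The largest ratio in favour of Nutlin-3a was on chromosome 3, 114361427 to 114362724, with folds of 1.87 with DMSO and 4.09 with Nutlin-3a, a ratio of 2.19. Its peak spanned 500 bp with DMSO and 1298 bp with Nutlin-3a. Chromosome 2, 47261010 to 47262076, followed with 2.55 and 4.57 (1.79 times), and chromosome 22, 39461791 to 39463399, with 3.63 and 6.48 (also 1.79 times). In favour of DMSO the largest was chromosome 1, 145382454 to 145383201, with 4.95 and 2.95 (1.68 times). Chromosome 21, 44144129 to 44145130, had 3.82 and 2.39 (1.60 times), and chromosome 6, 27099918 to 27101811, had 3.99 and 2.67, just under 1.5 times. None of these 6 had a MED14-AID peak within 12500 bp, where 22.7% of all 348 WT-only regions had one.

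The median distance between the summits of the highest DMSO and Nutlin-3a peaks was 79.5 bp at WT-only regions (quartiles 35.8 and 170 bp, highest 1182 bp), and 73 bp at regions with a MED14-AID peak. Peaks had to overlap to form a region, which limits this distance.

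Chromosomes differed in the number and the share of WT-only regions. Chromosome 17 held 42 of the 348 (12.1%), more than any other, and 7.77% of all 1584 regions. Chromosome 1 followed with 32 (9.20%, beside 7.20% of all regions). Chromosome 12 held 30 (8.62% beside 8.46%) and chromosome 4 held 24 (6.90% beside 6.88%), near their shares of all regions. On chromosome 17, 42 of the 63 regions in both WT lists were WT-only (66.7%, 54.4 to 77.1%), against 44.9% over all chromosomes. With WT peaks of −log10 q of at least 10, 12 of 28 regions on chromosome 17 were WT-only (42.9%), beside 28.5% over all chromosomes. On chromosome 15 they were 12 of 15 (80%, 54.8 to 93.0%), and on chromosome 1 32 of 54 (59.3%, 46.0 to 71.3%). At the other end stood chromosome 18 with 1 of 14 (7.14%, 1.27 to 31.5%), chromosome X with 1 of 7, chromosome 11 with 12 of 40 (30%, 18.1 to 45.4%) and chromosome 8 with 22 of 64 (34.4%, 23.9 to 46.6%). The intervals cover the counting of regions only and are no test of a chromosome, since neighbouring regions share a locus. These chromosomes were singled out of 23 after the counts were seen.

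**Figure D5:**
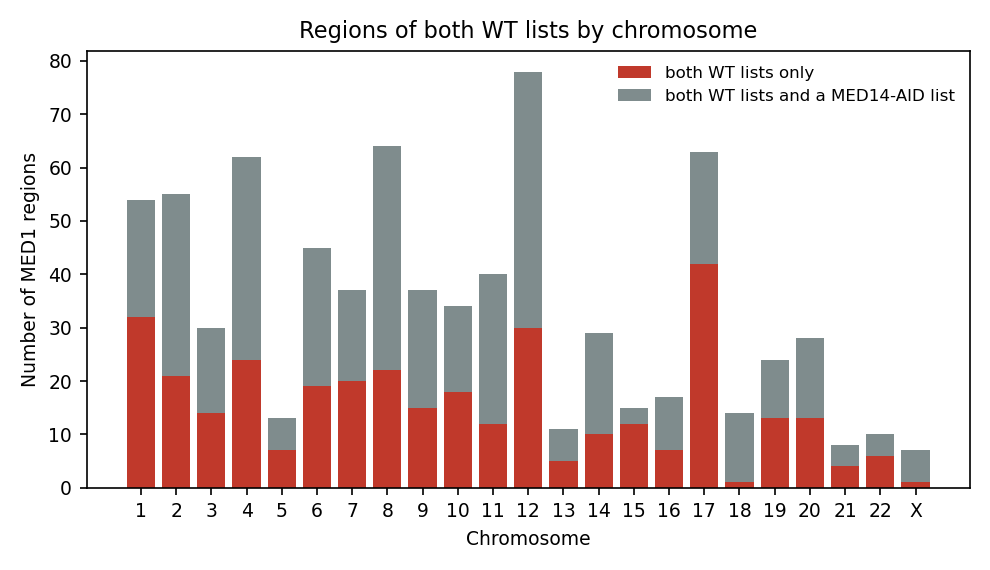
Number of MED1 regions in both WT lists on each chromosome, split into WT-only regions (red) and regions with a MED14-AID peak (grey). Chromosome 17 has 42 WT-only regions of 63, chromosome 15 has 12 of 15 and chromosome 18 has 1 of 14.

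On chromosome 17 the median folds of the 63 regions were 3.01 with DMSO and 3.46 with Nutlin-3a. In classes 1 to 3, 39 of its 48 regions were WT-only (81.3%), against 59.8% of all 465 regions in those classes. In classes 4 and 5, 3 of 15 were (20%), against 22.6% of 310. On chromosome 15 the counts were 8 of 10 in classes 1 to 3 and 4 of 5 in classes 4 and 5, and on chromosome 18 they were 1 of 9 and 0 of 5. The part of height in the chromosome counts was not tested further.

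The shares of each list's peaks differed in the same direction between the WT and the water lists. Chromosome 17 held 7.59% of the peaks in the WT DMSO list (6.18 to 9.31%) and 8.45% in the WT Nutlin-3a list (7.04 to 10.1%), but 4.75% with water (3.16 to 7.09%) and 4.02% in the water-plus-Nutlin-3a list (2.65 to 6.07%). Chromosome 18 went the other way, with 1.81% (1.17 to 2.78%) and 1.67% (1.10 to 2.55%) in the WT lists and 4.32% (2.81 to 6.58%) and 3.26% (2.04 to 5.15%) in the water lists. Chromosome 15 held 1.81% and 2.31% of WT peaks and 0.864% and 0.383% of water peaks. The auxin lists, with 53 and 66 peaks, did not follow the water lists throughout. Chromosome 17 held 3.77% of auxin peaks without Nutlin-3a (1.04 to 12.8%) and 6.06% with it (2.38 to 14.6%). Chromosome 18 held 0 of 53 and 0 of 66, where the upper limits of the intervals are 6.76% and 5.50%, and chromosome 15 held 0 of 53 and 1.52%.

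Along chromosome 17 the WT-only regions formed long runs among the regions of both WT lists. Read in order over the regions of both WT lists on all chromosomes, the 3 longest runs of WT-only regions without a shared one between them were all on this chromosome. They were 12 regions from 59488574 to 73120880, 10 from 1390301 to 17825227 and 10 from 41444679 to 56027076, over 13.6, 16.4 and 14.6 Mb. MED14-AID peaks that lie in no region of both WT lists are skipped, so a run may span such peaks. In the run of 12 a peak of the water list lay from 63555736 to 63556284. Before 20 Mb all 10 regions were WT-only, between 20 and 40 Mb 1 of 11 was, between 40 and 60 Mb 16 of 25 and past 60 Mb 15 of 17. The regions between 20 and 40 Mb were the higher ones, with a median fold of 3.75 with DMSO against 3.21, 3.01 and 2.83 in the other blocks in the order given. The longest run of regions that all had a MED14-AID peak was on chromosome 12, with 11 from 89319346 to 120731238.

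Elsewhere runs of 7 WT-only regions were found on chromosome 1 from 45196333 to 84764980, chromosome 3 from 111654547 to 114370366, chromosome 4 from 79485842 to 164416143 and chromosome 7 from 130692394 to 149571458. A shorter run was dense, with 6 regions within 172 kb on chromosome 1 from 8086259 to 8258702. Its folds ran from 2.36 to 4.11 with DMSO and from 2.35 to 6.81 with Nutlin-3a, and its last region is among the 10 strongest. On chromosome 15, 6 in a row lay from 65588098 to 96817589. They include the pair from 65588098 (4.13 with DMSO and 6.34 with Nutlin-3a) and from 65596766 (4.54 and 4.80), which form a cluster of their own with no MED14-AID peak within 2.5 Mb. Within the span of these 6 lay a peak of the auxin list with Nutlin-3a, from 68132013 to 68133023. The lone WT-only region of chromosome 18, 3614726 to 3616294, had folds of 2.30 and 3.02 and lay 376 bp from a peak of the water-plus-Nutlin-3a list.

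Of 752 pairs of neighbours among the 775 regions, 183 were WT-only on both sides (24.3%), 302 were mixed and 267 were WT-only on neither. With gaps up to 12500 bp, 37 of 238 pairs were WT-only on both sides (15.5%) and 86 were mixed. With gaps over 1 Mb, 75 of 234 were (32.1%). WT-only regions were 33.6% of the ends of close pairs and 56.0% of the ends of distant ones.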

How the data were processed

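MED1 ChIP-seq gave 8 MED1 libraries and 8 inputs, and 6 peak lists were used. The submitters' processing notes name Bowtie 0.12.9, MACS2 2.1.2 and the build hg19; settings are not given in the sources used here. The deposited fold enrichment is a ratio over the caller's background, and the deposited −log10 values used are those of q. The authors called WT peaks on merged replicates, per the file's peak names and labels. Depth is unknown, and weak binding below the caller's limit is not seen. Samples were grouped by title.

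Peaks sharing 1 bp were merged, and distances run from edge to edge. Tables were made in Python 3.11.15 (pandas 2.3.3, numpy 2.4.6), intervals with scipy 1.17.1 and plots with matplotlib 3.10.9. Merging and distances were checked against bedtools 2.31.1, with 0 of 1584 regions and 0 of 348 distances different, and tested on simulated data. Regions, rules and comparisons were chosen with earlier results of these data known. Regions named are the 10 strongest, 5 weakest, 5 nearest to and 3 farthest from a MED14-AID peak, the 3 widest, 3 with the largest ratio each way, the 3 leading clusters (ties broken by fold after the data were seen) and 5 just outside the rule. The runs, chromosomes and further clusters were chosen after their values were seen. No hg19 genome or annotation was used, so no gene or sequence is given. Alternatives were a 50% reciprocal overlap, a 1 kb gap, stricter limits, equal list lengths, autosomes and X, water lists alone, other stitching gaps and −log10 q for fold.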

Additional observations from a re-analysis of the deposited data

How the results depend on the processing

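Of 72 alternative values over 16 results, 35 stayed within the 95% interval of the value reported (for the count of regions, within 1.5 times), 37 did not and 0 changed sign. The stricter limits compare fewer and higher WT peaks by construction; what lies behind the remaining ones was not tested. The water lists alone left each value within that limit. Autosomes and X alone could not move any value, since chromosome Y held 0 regions of both WT lists. Its unchanged values are counted among the 35.

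With −log10 q of at least 10 there were 124 WT-only regions (28.5% of those in both WT lists), with median folds of 3.87 (DMSO) and 4.13 (Nutlin-3a), widths of 809.5 and 868.5 bp and a median distance of 1241 kb, and 16.9% within 12500 bp. Of the regions on chromosome 17, 42.9% were then WT-only, and 0 of 10 on chromosome 18. With a fold of at least 5 there were 3 (2.59%), with 5.45, 6.44, 873 bp, 1075 bp, 3198 kb and 0% in the same order. With lists of equal length there were 88 (23.8%), with 3.96, 4.39, 826.5 bp, 933 bp, 1390 kb and 17.05%. With reciprocal overlap the share was 50.7%, the folds 3.26 and 3.56, the DMSO width 756 bp, the distance 341 kb and the share within 12500 bp 30.9%. With a 1 kb gap the latter was 15.6%. Stitching at 5 kb put 16.4% of WT-only regions in clusters with a MED14-AID peak and left 67.5% alone, and at 25 kb 47.1% were alone. The median log2 ratio was 0.34 from −log10 q. No paired analysis was possible because each WT list joins both replicates, so no replicate could be left out either. Promoter windows were not run, as no hg19 annotation was used.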

Other observations

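The 3 WT-only regions farthest from any MED14-AID peak were on chromosome 9, 71394591 to 71395322, at 38.6 Mb, on chromosome 14, 24664403 to 24665031, at 29.3 Mb, and on chromosome 8, 67035966 to 67036861, at 24.7 Mb. Their folds with DMSO and Nutlin-3a were 4.43 and 3.20, 3.10 and 3.31, and 2.56 and 3.40. The first was higher with DMSO and the other two with Nutlin-3a.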
